A study of Drosophila melanogaster with 7 samples.

Results

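The genes described are 58 genes of the secretory pathway, taken by the start of their symbols (Sec, Srp, SrpR, Spase, Rab and Syx, each followed by a number or letter as in fly nomenclature) or by the ending COP. They were 58 of 11982 genes with a probe set of their own on the array. Each gene was represented by 1 probe set, the brightest over the 7 arrays. By role they were 7 genes of the signal recognition particle and its receptor, 3 of signal peptidase, 4 of the translocon, 5 of the COPII coat, 6 of the COPI coat, 5 of the exocyst, 3 other Sec genes and 25 genes with Rab symbols. The 25 include 3 regulators of Rab3, so that 22 encode Rab GTPases. No syntaxin gene entered, although the symbol rule names them, and the syntaxins as well as Rab1, Rab5, Rab7, Rab11, Sec23 and SrpRbeta were not analysed here.

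Salivary glands of Drosophila melanogaster prepupae were dissected 14 h after puparium formation, and their total RNA was hybridized to 7 Affymetrix arrays, 1 per sample. The X1 glands (3 arrays) came from animals with 2 copies of P{hs-GAL4}X1. The line 89 glands carried the insertion P{GAL4-Hsp70.PB}89-2-1, in 2 copies (1 array) or in 1 copy (1 array). The w1118 glands (2 arrays) carried no GAL4. In both transgenes a heat-shock promoter drives GAL4, a yeast transcription activator without a fly counterpart, and this promoter is not specific to the gland. All animals, w1118 included, were reared at 25 °C and given 30 min at 37 °C. The GAL4 animals received it at 9 h and the w1118 animals at 9.5 h after puparium formation, which left 5 h and 4.5 h before dissection. GAL4, strain background and this difference in time cannot be told apart in any comparison with w1118. The series text calls the X1 arrays and the w1118 arrays biological replicates. The number of animals per sample is not given in the sources used here.

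Secretory proteins enter the endoplasmic reticulum when the signal recognition particle brings a ribosome to its receptor and the Sec61 channel, and signal peptidase then removes the signal sequence. COPII-coated vesicles carry cargo from the endoplasmic reticulum to the Golgi, and COPI-coated vesicles carry material back and between Golgi compartments. Rab GTPases give each membrane its identity, and tethers such as the exocyst capture vesicles before SNARE proteins fuse them. The larval salivary gland is a secretory organ that makes the glue with which the larva fixes its pupal case and, later in prepupal life, other secreted products.

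Values are dChip intensities on a linear scale. Values under 16 were raised to 16 before log2 changes were taken, and a gene counted as called where limma's p, adjusted by Benjamini-Hochberg over all fly probe sets, was under 0.05. Of the 58 genes, 46 had a mean intensity of at least 100 over the 7 arrays and 50 lay above 16 on every array. Their median level in w1118 was 297, against 62.1 over all genes. Median array intensity ran from 33.7 to 38.0 in X1, from 40.8 to 44.9 in line 89 and was 42.2 and 42.5 in w1118. The share of probe sets under 16 was 30% in X1 replicate 1, 23.4% and 23.7% in the other X1 arrays, 18.8% and 21.9% in line 89 (2 copies, 1 copy), and 20.3% and 18.9% in w1118. The 3' to 5' signal ratio of GAPDH was 3.25 to 4.12 in X1, 3.13 and 3.07 in line 89, and 3.8 and 2.47 in w1118. That of actin was 1.72 to 2.02, 2.13 and 1.45, and 1.6 and 1.62. The bacterial hybridization controls averaged 9.97 to 10.47 on the log2 scale in X1, 10.14 and 10.38 in line 89, and 10.78 and 10.90 in w1118. Of 9 gland markers measured, 3 rose in X1 (Eig71Eg, Eig71Eh and Sgs3), 2 fell (sage and Sgs7) and 4 were not called. These calls held in 4 to 9 of 16 alternatives (other scalings, floors and fits, and arrays left out). The summed level of the 9 markers was 29894 to 30083 in X1, 27268 and 17987 in line 89 (2 copies, 1 copy), and 24817 and 27700 in w1118. Most of each sum came from Eig71Eg and Eig71Eh, with means of 12371 and 12553 in X1 and 9236 and 9211 in w1118. Of 5 fat body markers 0 rose and 2 fell. Lsp2 was bright on every array, whereas Fbp2 had 27.2, 54.3 and 52.1 in X1, 37.7 and 996 in line 89 (2 copies, 1 copy), and 1647 and 2267 in w1118, a fall of 45.4-fold (adjusted p = 0.00595). The fat body sum was 7687 to 9856 in X1, 12890 and 13306 in line 89, and 13554 and 14626 in w1118. Of 5 muscle markers 0 rose and 3 fell (Mlc1, Act79B and Act87E), with sums of 290 to 345 in X1, 451 and 610 in line 89, and 518 and 532 in w1118. The 3 falls held in 5 of 15, 4 of 16 and 2 of 15 alternatives, in that order. Of 8 hemocyte markers 0 rose and 2 fell (NimC1 and Ppn), with sums of 588 to 687 in X1, 666 and 554 in line 89, and 568 and 586 in w1118. In these sums srp and PPO2, which were not called, averaged 246 and 200 in X1 and 138 and 86.9 in w1118. Of 5 neuronal markers 0 rose and 1 fell, with sums of 119 to 176 in X1, 152 and 163 in line 89, and 252 and 355 in w1118. Of 6 midgut markers 1 rose and 2 fell, with sums of 192 to 227 in X1, 260 and 155 in line 89, and 258 and 263 in w1118. No marker of these lists lay at or under 16 on every array, and their part in the results below was not tested. In such bulk samples, fewer cells of a type and less RNA per cell cannot be told apart.

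The first comparison asked how the secretory genes stood in X1 against w1118. Of 58 genes, 9 rose, 8 fell and 41 were not called. The share called was 29.3%, against 21.0% of all genes. At an unadjusted p under 0.05 there were 31 members (53.4%, against 37.6% of all genes). A mean of at least 100 was reached by 46 of the 58 members, against 4846 of all 11982 genes. The part of this difference in level in the shares was not tested. The rises made up 15.5% of the members, against 9.46% of all genes, and the falls 13.8%, against 11.5% of all genes. All X1 arrays lay above both w1118 arrays for 16 genes (27.6%, against 22.0% of all genes) and below them for 25 genes (43.1%, against 34.5% of all genes). The largest rises were those of Rab32 and Sec13, and the largest fall that of Sec10. The median log2 change over the 58 genes was -0.13, against -0.12 over all genes. The split of rises and falls depended on the scaling of the arrays. It was 13 and 6 with arrays scaled to one median, and 11 and 2 with arrays scaled to the hybridization controls, which moved the median change of all genes to 0.32. Over all probe sets the split moved the same way, with 1407 rises and 1997 falls as deposited, 1779 and 1429 with the median, and 2020 and 530 with the hybridization controls. With either scaling, each of the 9 rises remained a positive change and each of the 8 falls a negative one. With the hybridization controls the 8 falls shrank to between -1.10 and -0.05, and among them the call of Rab9 alone held. With all 5 GAL4 arrays as 1 group, 3 genes were called higher and 2 lower. Among the 17 genes called in X1, the calls of RabX1, RabX4 and deltaCOP held there. No call held under a replicate block. That block left the fit of 5 arrays little with which to estimate spread, and it called 0 of all probe sets. It therefore cannot set firm calls apart from weak ones.

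**Figure D1:**
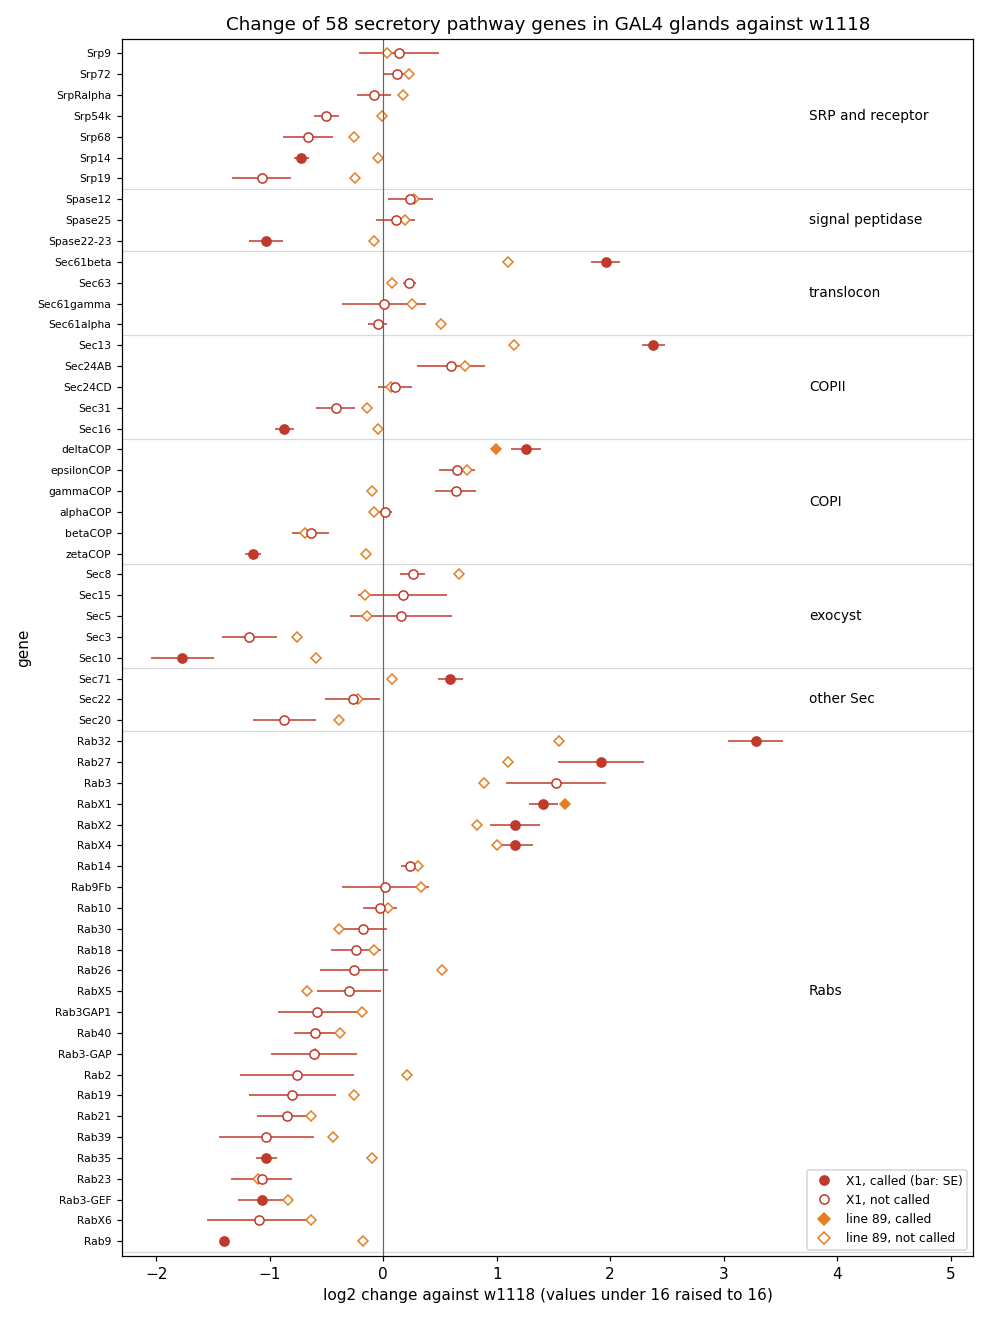
Log2 change against w1118 for the 58 secretory genes, grouped by role (gene names on the vertical axis). Circles are X1 with the standard error from limma as a bar, diamonds are line 89 (both arrays as 1 group), and filled symbols passed the test. Rab32 lies farthest right at 3.28 and Sec10 farthest left at -1.77, and each role holds genes on both sides of 0.

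At the entry to the endoplasmic reticulum, signal recognition particle genes had 0 rises and 1 fall among 7 genes, with a median log2 change of -0.50. Srp14, which encodes a subunit of the Alu domain of the particle, had intensities of 231, 208 and 227 in X1, of 432 and 291 in line 89 (2 copies, 1 copy), and of 378 and 355 in w1118. All 3 X1 arrays lay under both w1118 arrays, and the log2 change was -0.72 ± 0.07 (SE, adjusted p = 0.0115). The call held in 7 of 16 alternatives, and ended without w1118 replicate 1 (adjusted p = 0.0609) or X1 replicate 3 (adjusted p = 0.0543). The change shrank to -0.05 when arrays were scaled to the hybridization controls. Srp54k, the brightest of these genes, encodes the GTPase that binds signal sequences. It had 373, 461 and 432 in X1, 682 and 511 in line 89 (2 copies, 1 copy), and 607 and 578 in w1118. The X1 arrays were the lowest, but it was not called (-0.50 ± 0.11, adjusted p = 0.0654), and nor was Srp19 (-1.07 ± 0.26, adjusted p = 0.0762). The change of Srp54k, which is the median of the 7 genes, ranged from -0.71 to 0.18 across the alternatives. Srp9, the binding partner of Srp14, had a change of 0.14 and overlapping groups. The receptor gene SrpRalpha was measured at 322 to 414 in X1 and at 352 and 393 in w1118.

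Signal peptidase had 0 rises and 1 fall among 3 genes. Spase22-23 lay at 42.9, 53.8 and 56.7 in X1, 111 and 87.6 in line 89 (2 copies, 1 copy), and 106 and 102 in w1118. It was 2.05-fold lower in X1 (log2 change -1.03 ± 0.15, adjusted p = 0.0251). Its X1 arrays lay under all others. The call held in 6 of 15 alternatives and ended when any array except X1 replicate 1 was left out (adjusted p = 0.0637 to 0.14), and the change was -0.36 with hybridization control scaling. Spase12 had 2017, 1754 and 1845 in X1, 2434 and 1498 in line 89 (2 copies, 1 copy), and 1912 and 1316 in w1118. Spase25 lay at 1053 to 1353 in X1 and at 960 and 1184 in w1118. Both overlapped between X1 and w1118 and were not called.

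The translocon had 1 rise and 0 falls among 4 genes. Sec61beta, the small tail-anchored subunit of the channel, had intensities of 3815, 3564 and 3463 in X1, of 3038 and 1317 in line 89 (2 copies, 1 copy), and of 1046 and 827 in w1118. Every GAL4 array exceeded both w1118 arrays, and Sec61beta was 3.88-fold higher in X1 (log2 change 1.96 ± 0.13, adjusted p = 0.00473). The call held in 14 of 16 alternatives. Sec61alpha, which forms the pore of the channel, had 615, 577 and 552 in X1, against 625 and 577 in w1118. Its log2 change was -0.05 ± 0.08 (adjusted p = 0.718). Sec61gamma, the other small subunit, lay at 918, 469 and 474 in X1 and at 595 and 572 in w1118, with X1 replicate 1 above and the other X1 arrays below both w1118 arrays. Its change of 0.01 was not called, but without X1 replicate 1 it was -0.31 and was called. Sec63, a membrane partner of the channel, was not called (0.23 ± 0.06, adjusted p = 0.0775).

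The COPII coat had 1 rise and 1 fall among 5 genes. Sec13, a subunit of the outer cage that is also part of the nuclear pore, had intensities of 2111, 2223 and 2292 in X1, of 1259 and 700 in line 89 (2 copies, 1 copy), and of 461 and 390 in w1118. It was 5.21-fold higher in X1 (log2 change 2.38 ± 0.10, adjusted p = 0.00208). The groups did not overlap, and the line 89 arrays lay between them. Sec31, with which Sec13 builds the cage, had 348, 293 and 248 in X1, against 382 and 405 in w1118, and was not called (-0.42 ± 0.17, adjusted p = 0.192). Sec16, the scaffold of the exit sites, fell to 166, 178 and 158 in X1, against 318 and 293 in w1118. The line 89 arrays, at 291 and 301 with 2 copies and 1 copy, were close to w1118. The log2 change of Sec16 in X1 was -0.87 ± 0.08 (adjusted p = 0.00953). It was -0.20 and not called with hybridization control scaling, and the call also ended with a floor of 1 and with the 5 GAL4 arrays as 1 group (12 of 16 alternatives held). The cargo adaptor genes were not called. Sec24AB lay at 518 to 711 in X1 and at 297 and 503 in w1118, and Sec24CD at 274 to 357 in X1 and at 267 and 310 in w1118.

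**Figure D2:**
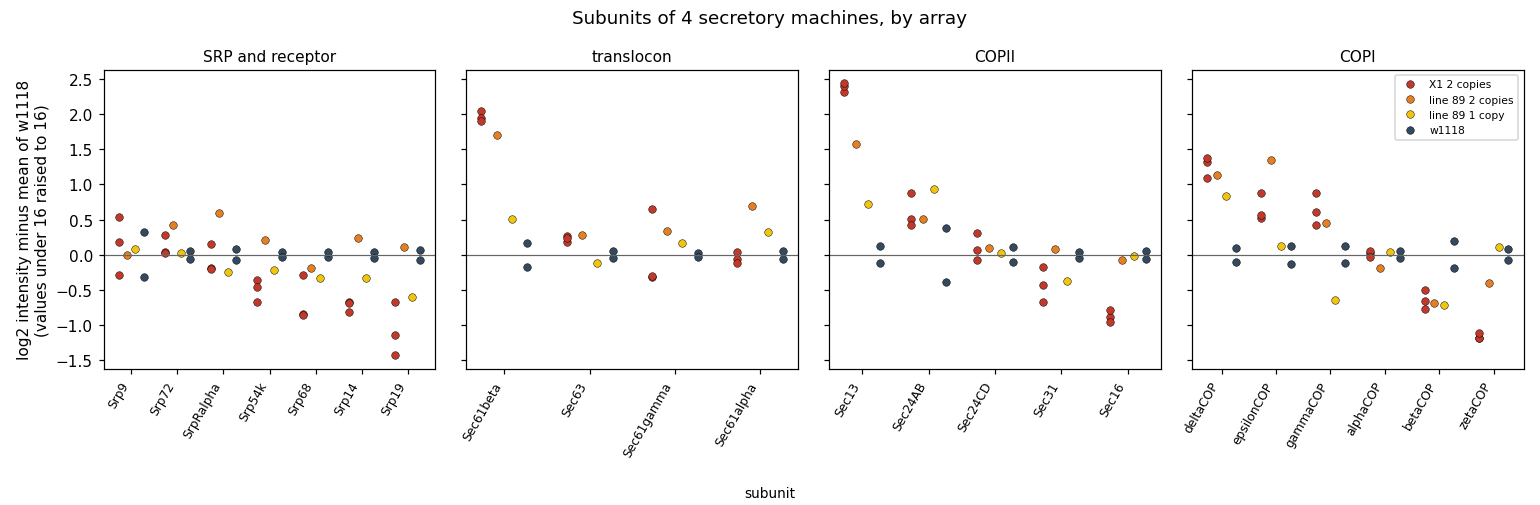
Log2 intensity of each array minus the w1118 mean, for the subunits (horizontal axis) of the signal recognition particle and its receptor, the translocon, COPII and COPI. Each point is 1 array and colours give the group. Sec61beta, Sec13 and deltaCOP stand above 1 in all X1 arrays, while Sec61alpha and alphaCOP lie near 0 and Sec31 and betaCOP below it.

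The COPI coat had 1 rise and 1 fall among 6 genes. deltaCOP had intensities of 1682, 1747 and 1440 in X1, of 1484 and 1203 in line 89 (2 copies, 1 copy), and of 723 and 628 in w1118. All 5 GAL4 arrays exceeded both w1118 arrays, and deltaCOP was 2.40-fold higher in X1 (log2 change 1.26 ± 0.13, adjusted p = 0.0112). That call ended without w1118 replicate 2 (adjusted p = 0.0618) or X1 replicate 2 (adjusted p = 0.0528). Its partner betaCOP had 275, 246 and 229 in X1, against 444 and 341 in w1118, and was not called (-0.64 ± 0.16, adjusted p = 0.0786). epsilonCOP (0.65 ± 0.16, adjusted p = 0.0724) and gammaCOP (0.64 ± 0.18, adjusted p = 0.0954) were not called either, and alphaCOP lay at 369 to 390 in X1 and 364 and 389 in w1118. zetaCOP was dim, at 15.7, 14.2 and 16.8 in X1, 27.4 and 39.0 in line 89 (2 copies, 1 copy), and 38.2 and 34.2 in w1118. Its fall of 1.15 on the log2 scale was called (adjusted p = 0.00418), with 2 X1 arrays under 16. The fall was 0.54 and not called with hybridization control scaling. A brighter probe set that lists both zetaCOP and CG5946 had 383, 329 and 397 in X1, against 435 and 418 in w1118, and was not called (-0.21 ± 0.11, adjusted p = 0.274).

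Partners in the same complex had unequal log2 changes in X1. The pairs were known binding partners, picked with the values known. The log2 ratio of Sec61beta to Sec61alpha averaged 2.64 ± 0.01 in X1 (SD, n = 3) and 0.63 ± 0.16 in w1118 (SD, n = 2), a difference of 2.00 ± 0.08 (SE). For Sec13 over Sec31 the difference was 2.80 ± 0.26 and for deltaCOP over betaCOP 1.90 ± 0.11. For Srp14 over Srp9 it was -0.86 ± 0.33. Since the pairs were built around genes already called, these differences are a description and no support for them.

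**Figure D3:**
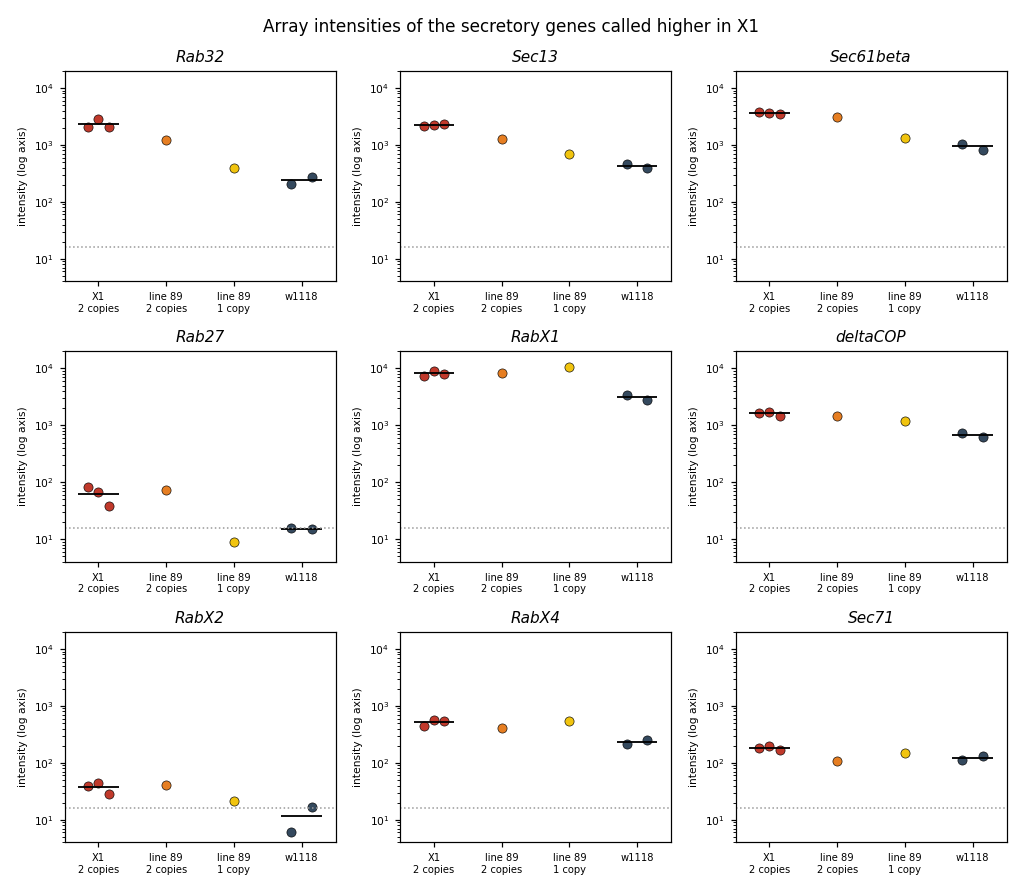
Intensity (log axis) on each array for the 9 secretory genes called higher in X1, with group means as bars where a group has over 1 array and the floor of 16 as a dotted line. For Rab32, Sec13 and Sec61beta the line 89 array with 2 copies lies between X1 and the array with 1 copy, whereas both line 89 arrays of RabX1 and deltaCOP lie well above w1118.

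Among the 25 genes with Rab symbols, 5 rose and 3 fell in X1. Rab32, which in flies acts in the making of eye pigment granules, organelles related to lysosomes, had intensities of 2049, 2872 and 2090 in X1, of 1206 and 399 in line 89 (2 copies, 1 copy), and of 205 and 276 in w1118. It was 9.71-fold higher in X1 (log2 change 3.28 ± 0.24, adjusted p = 0.00559), the 247th largest rise of all genes. The call held in 14 of 16 alternatives and the change ranged from 2.59 to 3.95 across them. In line 89 Rab32 was not called (1.55 ± 0.56, adjusted p = 0.247), and neither was the difference of X1 from line 89 (1.73 ± 0.51, adjusted p = 0.168).

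RabX1 was the brightest of the 58 genes, with a mean of 7069 over the 7 arrays. It had intensities of 7482, 9099 and 7989 in X1, of 8359 and 10377 in line 89 (2 copies, 1 copy), and of 3366 and 2810 in w1118. The GAL4 arrays all lay over 2-fold above both w1118 arrays. RabX1 was 2.65-fold higher in X1 (log2 change 1.41 ± 0.13, adjusted p = 0.0104). That call ended without w1118 replicate 2 (adjusted p = 0.0511) or X1 replicate 3 (adjusted p = 0.055). RabX4 had 447, 575 and 536 in X1, 401 and 532 in line 89 (2 copies, 1 copy), and 210 and 255 in w1118. The groups were again apart, and its log2 change in X1 was 1.16 ± 0.16 (adjusted p = 0.0227). The call held in 8 of 16 alternatives and ended when any array except X1 replicate 1 was left out (adjusted p = 0.0755 to 0.113).

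The remaining Rab rises were dim. Rab27, known in mammals for the docking of secretory granules, had 83.7, 68.2 and 39.1 in X1, 73.3 and 9.11 in line 89 (2 copies, 1 copy), and 15.5 and 15.2 in w1118. Since both w1118 arrays lay under 16, the rise is at least 3.79-fold (adjusted p = 0.0488), and the floor left no spread between these arrays in the fit. RabX2 had 39.5, 44.8 and 28.8 in X1 and 5.99 and 17.1 in w1118 (1.16 ± 0.22, adjusted p = 0.0460). The calls of Rab27 and RabX2 held in 3 of 15 alternatives each. Rab3, which acts at synaptic vesicles, had 153, 97.1 and 95.3 in X1 and 27.2 and 56.7 in w1118 and was not called (1.52 ± 0.44, adjusted p = 0.106).

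Of the Rab genes that fell, Rab35, an endocytic recycling GTPase, had intensities of 118, 128 and 109 in X1, of 127 and 398 in line 89 (2 copies, 1 copy), and of 250 and 231 in w1118. The X1 arrays lay closely together and under both w1118 arrays (log2 change -1.03 ± 0.09, adjusted p = 0.00918), while the line 89 arrays stood on either side of w1118. The change was -0.36 and not called with hybridization control scaling, and the call ended without w1118 replicate 1 (adjusted p = 0.0564). Rab9, which acts between late endosomes and the Golgi, lay under 16 in all X1 arrays (15.5, 14.2 and 15.2), against 42.4 and 41.8 in w1118. It was at least 2.63-fold lower (adjusted p = 0.00107), but the floor left no spread among the X1 values in that fit. With a floor of 1 Rab9 changed by -1.49 (adjusted p = 0.0197), and with a floor of 64 its call ended. Its line 89 values were 85.2 with 2 copies and 16.2 with 1 copy. Rab3-GEF, the exchange factor of Rab3, had 24.1 and 18.5 in 2 X1 arrays and lay under 16 in the third, against 37.9 and 43.0 in w1118, and its call (-1.07 ± 0.21, adjusted p = 0.0489) held in 1 of 15 alternatives.

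The other 17 genes with Rab symbols were not called. Rab10, a GTPase of polarised secretion, had 949, 1172 and 1035 in X1, against 959 and 1190 in w1118, and its change was -0.03 ± 0.15. Rab14, of the Golgi and endosomes, lay at 1214 to 1389 in X1 and at 1129 and 1101 in w1118 (0.24 ± 0.08, adjusted p = 0.136). Rab2, of traffic between the endoplasmic reticulum and the Golgi, had 84.3, 173 and 229 in X1 and 256 and 251 in w1118, with X1 replicate 1 the lowest (-0.76 ± 0.50, adjusted p = 0.399). Both subunit genes of the Rab3 GTPase-activating protein, Rab3GAP1 and Rab3-GAP, were also lowest in X1 replicate 1, at 323 and 252, and were not called (-0.58 and -0.61). Rab39, at 129, 284 and 252 in X1 and 461 and 400 in w1118, followed the same order, with replicate 1 the lowest of the X1 arrays (-1.03 ± 0.42, adjusted p = 0.194).

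Several uncalled Rab genes lay lower on all X1 arrays than on both w1118 arrays, as did 34.5% of all genes. Rab21, of early endosomes, had 116, 163 and 196 in X1, 165 and 195 in line 89 (2 copies, 1 copy), and 287 and 272 in w1118 (-0.85 ± 0.26, adjusted p = 0.116). RabX6 had 99.7, 160 and 238 in X1, 212 and 213 in line 89, and 397 and 276 in w1118 (-1.09 ± 0.46, adjusted p = 0.210). Rab19 (-0.80 ± 0.38) and Rab40 (-0.60 ± 0.19) had the same order, as did Rab23, a regulator of Hedgehog signalling in mammals, whose arrays were near the floor (-1.07 ± 0.27, adjusted p = 0.0782). In each of these the line 89 arrays also lay under both w1118 arrays, as they did for 23.5% of all genes. Rab40, at 131 with 1 copy and 131 and 137 in w1118, did so by less than 1 unit. Over the alternatives the highest change was 0.07 for Rab40, 0.0 for Rab23, -0.13 for Rab19, -0.18 for Rab21 and -0.42 for RabX6. Rab18, of lipid droplets and the endoplasmic reticulum, had 802, 1149 and 1199 in X1, against 1220 and 1223 in w1118 (-0.24 ± 0.22), and Rab30, of the Golgi, overlapped between the groups (-0.18 ± 0.21). Rab26, RabX5 and Rab9Fb were dim, at 14.6 to 41.3 in X1 and 13.4 to 41.3 in w1118, and overlapped between the groups.

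**Figure D4:**
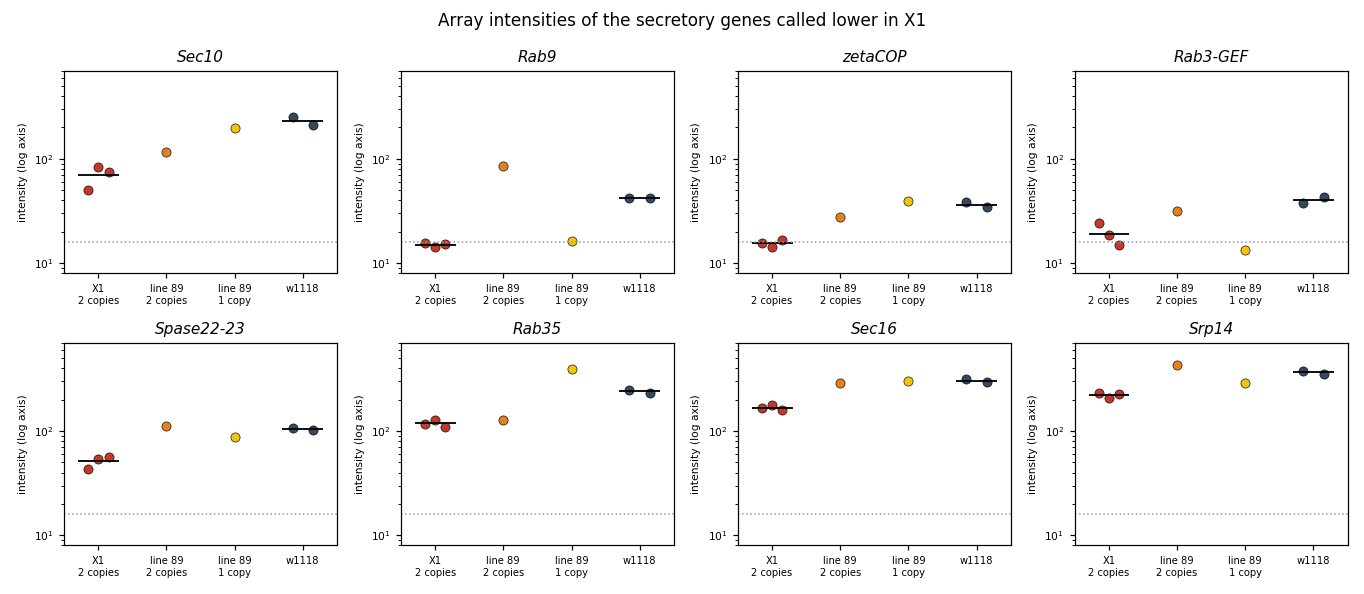
Intensity (log axis) on each array for the 8 secretory genes called lower in X1, with group means as bars where a group has over 1 array and the floor of 16 as a dotted line. The X1 arrays lie under both w1118 arrays in every panel, and zetaCOP, Rab9 and Rab3-GEF are near the floor in X1.

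The exocyst, which tethers vesicles to the plasma membrane, had 0 rises and 1 fall among 5 genes. Sec10 had intensities of 49.9, 82.9 and 75.2 in X1, of 117 and 199 in line 89 (2 copies, 1 copy), and of 252 and 211 in w1118. It was 3.41-fold lower in X1 (log2 change -1.77 ± 0.28, adjusted p = 0.0295), with X1 replicate 1 the lowest. The call held in 8 of 16 alternatives and ended when any array except X1 replicate 1 was left out, although the change stayed between -1.91 and -1.10. Sec3 had 39.9, 48.3 and 64.7 in X1, against 119 and 107 in w1118, and just missed the threshold (-1.18 ± 0.24, adjusted p = 0.0533). Sec5, the brightest exocyst gene, had 209, 501 and 413 in X1, 341 and 239 in line 89 (2 copies, 1 copy), and 349 and 285 in w1118. Its X1 arrays lay on both sides of w1118, and Sec5 (0.16), Sec8 (0.26) and Sec15 (0.17) were not called. Among the other Sec genes, Sec71, an exchange factor for Arf GTPases, had 182, 201 and 169 in X1, 109 and 151 in line 89 (2 copies, 1 copy), and 114 and 130 in w1118. Its rise of 1.51-fold (adjusted p = 0.0438) held in 4 of 16 alternatives. The SNARE gene Sec22 had 489, 642 and 602 in X1, 644 and 551 in line 89 (2 copies, 1 copy), and 848 and 568 in w1118. It overlapped between the groups and was not called (-0.27), and nor was Sec20 (-0.87).

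Line 89 was set against w1118 to see how the secretory genes stood with GAL4 from another insertion. Both of its arrays formed 1 group, so that the difference in copy number counted as spread. RabX1 was 3.03-fold higher (log2 change 1.60 ± 0.17, adjusted p = 0.0155) and deltaCOP 1.98-fold higher (0.99 ± 0.16, adjusted p = 0.0460), and 0 of the 58 genes were called lower. These 2 rises made up 3.45% of the members, where 5.11% of all genes were called, 3.54% higher and 1.57% lower. Both line 89 arrays lay above both w1118 arrays for 15 members (25.9%, against 23.8% of all genes) and below them for 13 (22.4%, against 23.5% of all genes). The call of RabX1 held in 10 of 16 alternatives and that of deltaCOP in 3 of 16. Without the array with 1 copy, the log2 change of RabX1 was 1.44 and that of deltaCOP 1.14. Without the array with 2 copies, these changes were 1.75 and 0.84. Leaving out X1 replicate 1 or 2, which enter the shared fit, left 1 rise, and leaving out X1 replicate 3 or either w1118 array left 0. At an unadjusted p under 0.05 there were 11 members (19.0%, against 19.7% of all genes). RabX4 (1.00 ± 0.21, adjusted p = 0.0791), Sec13 (1.15 ± 0.29, adjusted p = 0.123) and Sec61beta (1.10 ± 0.41, adjusted p = 0.255) were not called. The comparisons of X1 and of line 89 share the w1118 arrays.

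The direct comparison of X1 with line 89 called 0 secretory genes higher and 1 lower, with 12 members at an unadjusted p under 0.05 (20.7%, against 21.5% of all genes). All X1 arrays had 2 copies of GAL4, while line 89 joined 1 array with 2 copies and 1 array with 1 copy. Insertion, strain background and copy number cannot be told apart in this comparison. Sec16 differed by -0.82 ± 0.09 (adjusted p = 0.0329), with X1 at 158 to 178 and line 89 at 291 and 301. The called share of 1.72% stands beside 2.36% of all genes, of which 0.985% were higher and 1.38% lower. That call ended in 13 of 16 alternatives. Without the line 89 array with 2 copies the difference of Sec16 was -0.84, and without the one with 1 copy it was -0.8. When any single X1 array was left out, 0 secretory genes were called. Leaving out either line 89 array instead raised the number of secretory genes called. The few calls thus depended on joining these 2 arrays, and 1 array alone gives line 89 no spread. zetaCOP (-1.01 ± 0.17, adjusted p = 0.0653), Spase22-23 (-0.96 ± 0.17, adjusted p = 0.0722) and Sec13 (1.23 ± 0.27, adjusted p = 0.100) were the next nearest to the threshold among the genes called in X1.

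Between line 89 with 2 copies and with 1 copy there was 1 array on each side and hence no replicate check. With 2 copies, 8 of the 58 genes were at least 2-fold higher and 1 at least 2-fold lower than with 1 copy, while 11.1% of all genes were higher and 8.5% lower by as much. The median log2 difference was 0.18 for the secretory genes, against 0 for all genes. Rab32 was 3.02-fold higher with 2 copies (1206 against 399), Sec61beta 2.31-fold (3038 against 1317) and Sec13 1.80-fold (1259 against 700). By contrast RabX1, at 8359 with 2 copies and 10377 with 1 copy, and RabX4, at 401 and 532, were lower with 2 copies. epsilonCOP lay at 528 with 2 copies and 227 with 1 copy, gammaCOP at 842 and 394, and Spase25 at 2052 and 722. Rab35, at 127 with 2 copies and 398 with 1 copy, was the gene lower by over 2-fold. The summed level of the 9 gland markers measured was 27268 with 2 copies and 17987 with 1 copy. Most of it came from Eig71Eg (12358 and 10540) and Eig71Eh (8223 and 4528). The part of this sum in the differences between the 2 arrays was not tested.

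Other genes of the pathway, which the symbol rule does not take, were examined as a list of 69 genes, of which 54 were measured. In X1 4 of the 54 rose and 6 fell, where 9.46% of all genes rose and 11.5% fell. Their median log2 change was -0.38, against -0.12 over all genes. With arrays scaled to the hybridization controls 5 rose and 0 fell. Ykt6, a SNARE that acts at the Golgi and in membrane fusion at lysosomes, averaged 655 ± 21.4 in X1 (SD, n = 3), 617 and 441 in line 89 (2 copies, 1 copy), and 80.1 ± 0.699 in w1118 (SD, n = 2). Its log2 change was 3.03 ± 0.05 (adjusted p = 0.000572), and it was the gene of this list that was also called in line 89. The lysosomal SNARE gene Vamp7 averaged 7979 ± 372 in X1 and 3168 ± 310 in w1118 (log2 change 1.34 ± 0.09, adjusted p = 0.00482). The calls of Ykt6 and Vamp7 held in 15 of 16 alternatives each.

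The kinase gene PEK of the unfolded protein response (0.64, adjusted p = 0.00717) and Gdi, which recycles Rab proteins (0.62, adjusted p = 0.0295), rose as well. The falls included the TRAPP tether genes Trs23 (-1.26, adjusted p = 0.0147) and Bet3 (-0.67, adjusted p = 0.0388), Golgin97 of the trans-Golgi (-0.84, adjusted p = 0.0182) and the p24 cargo receptor gene bai (1512 ± 85.2 in X1, against 3045 ± 572 in w1118, adjusted p = 0.0252). The cargo receptor gene Surf4 fell by 0.27 (adjusted p = 0.0343), but its change was 0.41 with hybridization control scaling. Use1, a SNARE of retrograde traffic, fell to a mean of 38.3 ± 16.7 in X1 (SD, n = 3), against 195 ± 7.31 in w1118 (SD, n = 2; log2 change -2.45 ± 0.48, adjusted p = 0.0466). The calls of Bet3, bai, Surf4, Gdi and Golgin97 held in 4 or 5 alternatives each. That of Use1, with 20.7, 40.4 and 53.8 in X1, held in 7 of 16. Of the chaperone and retention genes of the endoplasmic reticulum, 0 of 8 were called. Of these, the chaperone gene Hsc70-3 averaged 6180 ± 441 in X1 (SD, n = 3) and 6202 ± 1289 in w1118 (SD, n = 2). CrebA, Xbp1 and Sar1 were not analysed here.

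By position on the chromosomes, 2 of the 9 genes that rose and 1 of the 8 that fell had a called gene of the same direction as the nearest measured gene on either side. Over all called genes the share was 37.1% for rises and 26.3% for falls. Rab32, between Rme-8 and CG8026, and RabX1, between CG3906 and mi, had neighbours that were not called, and both measured neighbours of Sec13 (ATPsynCF6 and CG4408) fell. Sec71 lies between CG16863, which rose by 1.70 on the log2 scale, and the carbonic anhydrase gene CAH1, which rose by 1.22.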

How the data were processed

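The authors deposited dChip values as intensity on a linear scale, all arrays normalized to a common baseline array of median intensity 145, per the series text. The version and model of dChip are not given in the sources used here. From 18952 probe sets, 183 Affymetrix controls were left out and 18769 were tested. In the platform annotation 13647 of these had 1 symbol, 402 had several and 4720 had none. All 58 members were found by gene ID in a table of the Release 6 assembly, used for names and gene order alone.

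Intensities were floored at 16 and log2-transformed. Groups were compared in limma 3.58.1 (lmFit, eBayes, two-sided) under R 4.3.3. X1 against w1118 used 5 arrays, and the comparisons with line 89 used one fit of 7 arrays in 3 groups. The procedure was checked on simulated data. "At least" marks folds whose dimmer group had no array over 16. The number of arrays limits the precision. Every member could be named. Of the other pathway genes, up to 5 called in each direction by adjusted p were named, as was Hsc70-3, and Use1 was added after its values were seen. The members and lists were chosen with earlier results of these data known.

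Alternatives were quantile normalization, scaling to one median or to 18 hybridization control probe sets, floors of 1 and 64, a mean of at least 100, a trended robust variance, a replicate block, an adjusted p under 0.01, other groupings and leaving out each array, 16 for each comparison (15 for genes under a mean of 100).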

Additional observations from a re-analysis of the deposited data

Results flagged for a closer look

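Sec16 differed between X1 and line 89 by -0.82 on the log2 scale (X1 minus line 89, limma adjusted p = 0.0329), a difference between the 2 groups of arrays in their standing against w1118. Insertion, strain background and copy number cannot be told apart in it. Its intensities were 166, 178 and 158 in X1, 291 and 301 in line 89, and 318 and 293 in w1118. No rule for flagging single arrays that stand apart was applied to groups of 3 or fewer arrays. Values of single arrays and fits that left out an array are given with the genes above.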

How the results depend on the processing

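Counts that moved by over 1.5 times are given here, except in comparisons with line 89 where a fit left 1 array in a group. Counts in those fits moved both up and down, and 1 array gives its group no spread. In X1, the 9 rises became 5 with a floor of 64, 3 at an adjusted p under 0.01 and 3 with 5 GAL4 arrays as 1 group, and ranged from 3 to 7 when 1 array was left out. The 8 falls became 2 with hybridization control scaling, 3 with a floor of 1, 4 at an adjusted p under 0.01, 5 in the fit of 7 arrays and 2 with 5 GAL4 arrays as 1 group. They ranged from 3 (without w1118 replicate 1) to 13 (without X1 replicate 1), and were 5 without any of the other 3 arrays. Rises were 5 and 3 without w1118 replicate 1 and 2, and 4 without X1 replicate 2. The 3404 calls over all probe sets became 1394 with a floor of 64, 1181 at an adjusted p under 0.01, 1230 with 5 GAL4 arrays as 1 group and 1619 to 4170 without 1 array (1619 and 1663 without X1 replicates 2 and 3). For the other pathway genes, the 4 rises became 2 in the fit of 7 arrays and ranged from 3 to 5 without 1 array. Their 6 falls became 12 with quantile normalization, 3 with median scaling, 0 with hybridization control scaling, 2 with a floor of 1, 0 at an adjusted p under 0.01, 1 with 5 GAL4 arrays as 1 group and 1 to 11 without 1 array.

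In line 89, the 2 rises became 1 with quantile normalization, median scaling, a floor of 64 or the trended variance, and 6 with hybridization control scaling. They became 0 with a floor of 1 or at an adjusted p under 0.01, and 0 or 1 without 1 X1 array. The count of 0 falls stayed at 0 without 1 X1 array. In X1 against line 89, the count of 0 rises stayed at 0 without 1 X1 array. The 1 fall became 0 with quantile normalization, median scaling, hybridization control scaling, a floor of 1, a mean of at least 100, the trended variance or an adjusted p under 0.01. It also became 0 without 1 X1 array. Median scaling and hybridization control scaling turned the median change of the 58 genes in X1 to 0.10 and 0.48, or 0.10 and 0.16 above the median of all genes. Quantile normalization gave -0.25, which lay 0.21 below that of all genes. Sec61gamma changed by -0.31 without X1 replicate 1 and by up to 0.18 without another array. Surf4 changed by 0.41 with hybridization control scaling. The cause of these shifts was not tested.

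Under a replicate block limma made 0 calls in each comparison, with 18 of the 58 genes (against 26.9% of all genes) at an unadjusted p under 0.05 in X1 against w1118. The block left few arrays from which to estimate spread. Deviations of same-numbered X1 and w1118 arrays correlated at r = -0.049 and -0.012 across probe sets. With 2 w1118 arrays these deviations mirror each other, and X1 replicate 3 has no partner, so a pairing by number was not excluded. Signal near the floor limits zetaCOP, Rab9, Rab3-GEF, Rab27 and RabX2.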

Other observations

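A probe set that lists Rab9Fa, Rab9D, Rab9E and Rab9Db together, and so belonged to no single gene, had intensities of 83.7, 92.8 and 104 in X1, 70.9 and 87.8 in line 89, and 89.9 and 111 in w1118. It was not called in X1 (log2 change -0.10 ± 0.15, limma adjusted p = 0.703).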
